A study of Mus musculus with 2 samples.

Results

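Cycling leukocytes of the mouse spleen were taken from a pair of droplet single-cell RNA libraries as the barcodes that carried transcripts of at least 4 of 8 cell cycle genes, namely Mki67, Top2a, Birc5, Cdk1, Ccnb2, Ube2c, Pclaf and Rrm2. They numbered 282 of the 15941 barcodes that passed the same filters (1.77%), with 157 in the Glutoborin library and 125 in the Vehicle library. Both libraries held CD45+ sorted spleen cells of wild-type mice that had received 10000 iRBCs, an abbreviation the labels leave unexplained, by the intraperitoneal route. Mice of the Glutoborin group were given Glutoborin, a compound the labels do not describe, on days 2 and 4, those of the Vehicle group were given Vehicle on the same days, and spleens were taken on day 5 of the infection. The infection was thus shared by both groups, and no uninfected mice were analysed here. Each group was 1 library, and the sources used here do not say how many mice went into it, so no test was possible and the spread between animals could not be measured. Levels are CPM, the UMIs (counted RNA molecules) of a gene per 1000000 UMIs summed over the named cells. Log2 ratios are Glutoborin over Vehicle unless said otherwise, and the bracketed ranges are exact 95% intervals for counting error, without the spread between animals.

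A dividing cell first copies its DNA, with the MCM helicase, the clamp Pcna and nucleotide-making enzymes such as ribonucleotide reductase, and makes new histones to wrap the copy. It then raises mitotic cyclins and kinases, builds a spindle, separates its chromosomes and cuts itself apart, and the ubiquitin ligase of mitosis removes the cyclins again. In an infected spleen the known dividing leukocytes include germinal centre B cells and plasmablasts, T cells that have met antigen, and NK cells driven by cytokines.

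The 8 genes of the rule cover both ends of this programme. Pclaf, a partner of Pcna at the replication fork, and Rrm2, a subunit of ribonucleotide reductase, belong to DNA synthesis. Top2a untangles DNA and Mki67 coats mitotic chromosomes. Birc5 belongs to the chromosomal passenger complex, Cdk1 and its partner cyclin Ccnb2 drive entry into mitosis, and Ube2c hands ubiquitin to the mitotic ligase. The promoters of Ccnb2, Ube2c, Cdk1 and Pclaf are shown because they carry the letters known from late and early cell cycle genes. They are RefSeq sequences on GRCm38.p6, from 250 bases before to 50 after the start, printed 5′ to 3′ on the strand of the gene. Capitals mark matches, on either strand, to TTTGAA (the CHR element of mitotic genes), CCAAT, and TTGGCGC or TTCCCGC (E2F-type letters). Ccnb2 lies on the minus strand at chr9:70421505-70421804, Ube2c on the plus strand at chr2:164769679-164769978, Cdk1 on the minus strand at chr10:69352863-69353162 and Pclaf on the plus strand at chr9:65890073-65890372.
Ccnb2: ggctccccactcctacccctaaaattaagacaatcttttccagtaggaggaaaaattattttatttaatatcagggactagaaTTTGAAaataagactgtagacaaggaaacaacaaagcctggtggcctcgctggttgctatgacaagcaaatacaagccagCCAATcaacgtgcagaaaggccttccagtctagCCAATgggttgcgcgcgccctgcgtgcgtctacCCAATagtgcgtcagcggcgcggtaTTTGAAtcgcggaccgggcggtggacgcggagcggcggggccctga
Ube2c: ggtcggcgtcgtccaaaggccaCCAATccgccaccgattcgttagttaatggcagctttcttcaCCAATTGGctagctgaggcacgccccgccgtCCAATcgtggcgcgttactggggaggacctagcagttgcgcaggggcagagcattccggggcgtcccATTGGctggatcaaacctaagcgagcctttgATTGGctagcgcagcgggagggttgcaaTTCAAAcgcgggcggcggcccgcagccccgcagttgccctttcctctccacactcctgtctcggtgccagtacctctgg
Cdk1: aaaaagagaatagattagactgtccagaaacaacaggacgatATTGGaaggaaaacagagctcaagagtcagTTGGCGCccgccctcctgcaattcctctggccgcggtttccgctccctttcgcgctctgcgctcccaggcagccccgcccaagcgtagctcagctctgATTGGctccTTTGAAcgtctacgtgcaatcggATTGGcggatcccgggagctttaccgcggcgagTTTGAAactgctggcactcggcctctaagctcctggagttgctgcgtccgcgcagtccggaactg
Pclaf: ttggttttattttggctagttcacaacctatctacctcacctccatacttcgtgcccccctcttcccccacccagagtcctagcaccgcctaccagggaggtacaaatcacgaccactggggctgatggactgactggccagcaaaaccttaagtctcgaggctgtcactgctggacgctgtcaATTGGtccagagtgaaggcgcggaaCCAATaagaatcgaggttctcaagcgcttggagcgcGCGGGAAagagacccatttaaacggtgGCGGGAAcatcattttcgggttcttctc
TTTGAA stood in 5 of the 8 promoters (62.5%), against 18.1% of all 27025 promoters of the table, and CCAAT in 7 of 8, against 37.9%. Pclaf carried E2F-type letters and no TTTGAA in this window, Ccnb2 and Ube2c the reverse, and Cdk1 carried both. Of the genes not shown, Mki67 carried both, Top2a TTTGAA without E2F-type letters, and Rrm2 and Birc5 neither, so the genes of the rule did not split cleanly. The wider lists of the programme differed in these letters: TTTGAA stood in 21 of 29 promoters of the spindle list (72.4%) and in 7 of 37 of the replication list (18.9%), whereas E2F-type letters stood in 4 of 29 (13.8%) and 19 of 37 (51.4%). These matches are descriptions of letters and do not show binding.

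The 8 genes chose the cells, so their values describe the choice. Mki67 had a UMI in 141 of 157 Glutoborin cells and in 118 of 125 Vehicle cells, with summed levels of 558 and 493 CPM. Top2a was at 787 CPM in Glutoborin cells and 773 CPM in Vehicle cells. Between 77.4% and 93.2% of each gene's UMIs in its library lay in the cycling cells, the lowest shares being those of Top2a. Ube2c, at 449 CPM in Glutoborin cells and 216 CPM in Vehicle cells, stood furthest apart between the libraries among the 8, with a log2 ratio of 1.06 (0.92 to 1.20). Ccnb2 stood at 238 CPM in Glutoborin cells and 144 CPM in Vehicle cells. The genes of DNA synthesis lay on the other side, with Pclaf at 648 CPM in Glutoborin cells and 800 CPM in Vehicle cells and Rrm2 at 279 and 359 CPM. There was no gap in the numbers of barcodes at the limit of 4. In Glutoborin, 23 barcodes had exactly 4 of the genes, with a median of 9 UMIs over the 8, and 27 had 3, with a median of 6. In Vehicle, 24 had 4, with a median of 12.5, and 25 had 3, with a median of 5. All 8 genes were found in 57 Glutoborin and 44 Vehicle cells, with medians of 104 and 112.5 UMIs.

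**Figure D1:**
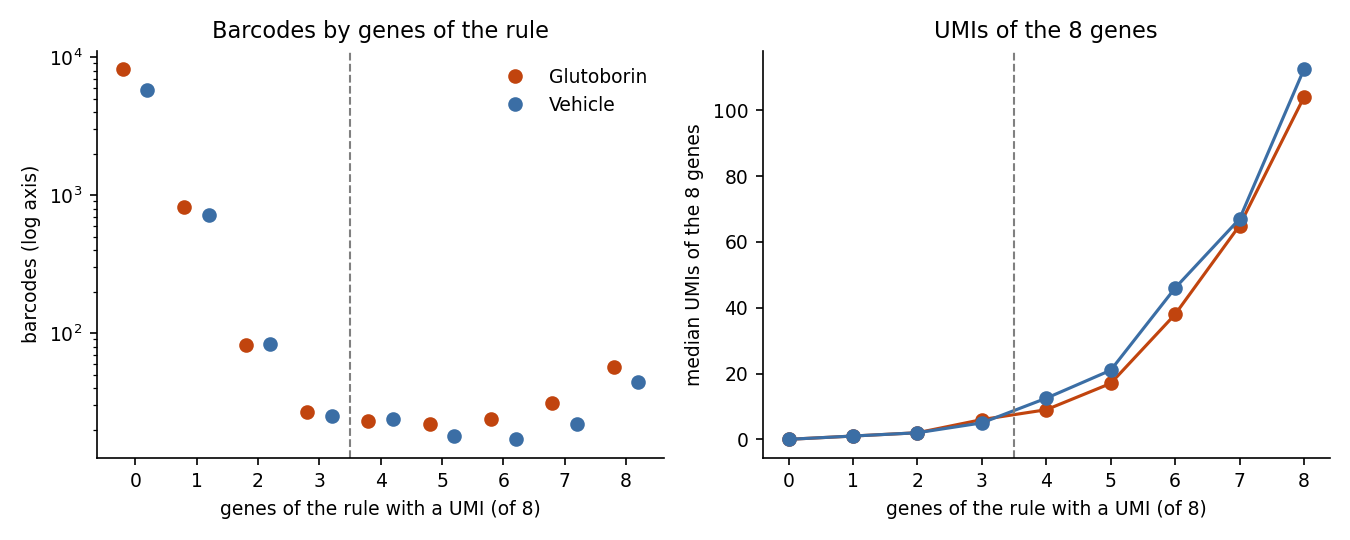
Left, number of barcodes (log axis) by how many of the 8 genes of the rule had a UMI, in the Glutoborin and Vehicle libraries; right, their median UMIs summed over the 8 genes. The dashed line marks the limit of 4, with 27 Glutoborin and 25 Vehicle barcodes just below it at 3 genes and 23 and 24 just above it at 4 genes.

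The cycling cells held more UMIs than cells with none of the 8 genes. Their median was 16333 UMIs in Glutoborin (587 to 83291) and 19198 in Vehicle (4470 to 89568), against 4733 and 5520.5. The rule itself favours this gap, since deep barcodes more readily show 4 genes and shallow ones more readily show none. Barcodes with 1 gene had medians of 6393.5 in Glutoborin and 7401 in Vehicle, and those with 2 genes 10240 and 10864. How far the gap reflects RNA content was not tested. Ptprc, which encodes CD45 and was the gate of the sort, had a UMI in 154 of 157 Glutoborin and 123 of 125 Vehicle cells. The limit of 10% mitochondrial UMIs removed 393 Glutoborin barcodes (4.07%) and 1515 Vehicle barcodes (18.5%), of which 1 and 7 carried at least 4 of the genes. Scrublet called 5 Glutoborin and 3 Vehicle cycling cells doublets, which were kept in the values below. The libraries shared 21 filtered barcodes, none of them cycling.

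Cycling cells made up a similar share of both libraries. They were 1.70% of Glutoborin barcodes (1.44 to 1.98%) and 1.87% of Vehicle barcodes (1.56 to 2.22%) (log2 ratio -0.14, interval -0.49 to 0.21). NK cells, here barcodes with Ncr1 and no Cd3 transcript, held the highest cycling share of the named lineages: 28 of 276 in Glutoborin (10.1%, 6.85 to 14.3%) and 19 of 170 in Vehicle (11.2%, 6.86 to 16.9%). T cells, with at least 2 UMIs of Cd3e, Cd3d and Cd3g, followed with 53 of 2753 in Glutoborin (1.93%, 1.45 to 2.51%) and 52 of 2067 in Vehicle (2.52%, 1.88 to 3.29%). B cells, with at least 4 UMIs of Cd79a, held 43 of 5117 in Glutoborin (0.840%, 0.609 to 1.13%) and 26 of 3436 in Vehicle (0.757%, 0.495 to 1.11%). The order NK, T, B held in both libraries with no overlap between the intervals of NK and T cells or of T and B cells. Within each lineage the interval of the Glutoborin to Vehicle ratio included no difference and had bounds on both sides of it: the log2 ratio was -0.14 (-1.03 to 0.78) in NK cells, -0.39 (-0.97 to 0.19) in T cells and 0.15 (-0.58 to 0.91) in B cells. Among barcodes with at least 10 UMIs of Lyz2, the myeloid class, 0 of 209 cycled in Glutoborin, which with 3 counts as the limit of a count of 0 allows a share of up to 1.44%, and 1 of 224 in Vehicle.

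**Figure D2:**
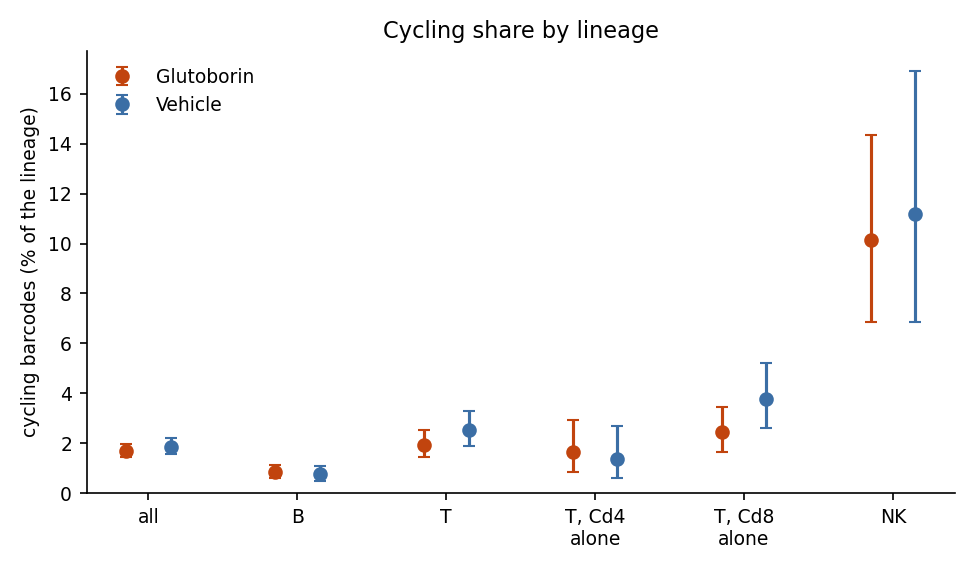
Share of the barcodes of each class that were cycling (percent), in the Glutoborin and Vehicle libraries, with bars for exact 95% binomial intervals that cover counting error alone; T cells are also split by Cd4 or by Cd8a and Cd8b1 transcripts alone. NK cells stood at 10.1% in Glutoborin and 11.2% in Vehicle, T cells at 1.93% and 2.52%, and B cells at 0.840% and 0.757%.

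The lineage limits read UMIs, and cycling cells held more of them, so the shares were also taken with the rule of 8 genes read from barcodes thinned to 2000 UMIs, leaving out 203 Glutoborin and 230 Vehicle barcodes with fewer, of which 2 and 0 were cycling, and with lineages still read at full depth. The NK share then was 6.96% in Glutoborin and 6.06% in Vehicle, the T share 1.06% in Glutoborin and 1.32% in Vehicle, and the B share 0.375% and 0.265%. With lineages read from thinned counts too, the B shares were 0.268% and 0.281%. The order of the lineages was the same in both. The definition of NK cells mattered to their number. With 1 Cd3 UMI allowed, 32 of 325 Glutoborin (9.85%) and 31 of 228 Vehicle barcodes (13.6%) cycled. Of the cycling cells left without a lineage, 22 in Glutoborin and 16 in Vehicle, 4 and 12 carried all 3 of the NK genes Ncr1, Klrb1c and Klre1. A further 11 cells in each library met the limits of more than 1 lineage, B and T in 7 Glutoborin and 5 Vehicle cells, B and NK in 2 and 6, and T and myeloid in 2 and 0. Their part as doublets was not tested beyond Scrublet, which called 2 of 11 in each library.

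Among T cells, those with Cd8a or Cd8b1 and no Cd4 made up the largest group of cycling cells in both libraries. They were 30 of 53 cycling T cells in Glutoborin (56.6%) and 34 of 52 in Vehicle (65.4%), against 44.6% and 42.3% of the T cells with none of the 8 genes. Of these CD8 cells 2.44% cycled in Glutoborin (1.65 to 3.46%) and 3.77% in Vehicle (2.62 to 5.22%). T cells with Cd4 alone cycled at 1.65% in Glutoborin, from 11 cells, and 1.38% in Vehicle, from 8. Foxp3, the factor of regulatory T cells, had a UMI in 2 of 53 Glutoborin and 3 of 52 Vehicle cycling T cells. Cycling was most frequent in barcodes of the T class that also carried Ncr1, at 11 of 72 in Glutoborin (15.3%) and 8 of 59 in Vehicle (13.6%), close to the NK shares. Cd3-bearing cells with Ncr1 were thus 11 of 53 and 8 of 52 of the cycling T class, and the phase medians and several T cell results are also given without them.

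A small group of cycling cells carried transcripts of red cell precursors. Taking 6 erythroid genes, chosen after their values were seen (Klf1, Gata1, Car1, Ermap, Rhd and Alas2), 5 cycling Glutoborin cells had at least 3 of them and no Vehicle cell did. Over all filtered barcodes the numbers were 6 and 0, so that most such barcodes were cycling. Of the 5, 3 had no lineage and 2 fell into the T class with a Cd3 sum of exactly 2 UMIs in totals of 78830 and 83291. Klf1, the master factor of the red lineage, had 26 and 25 UMIs in those 2 cells, and Car1, a red cell carbonic anhydrase, 535 and 241. The weakest of the 5 had 4 Car1 and 2 Klf1 UMIs in 22035. Ptprc, the gene of the sort, had a UMI in 4 of the 5, with 2 or 3 UMIs each. The 2 in the T class weigh on sums over T cells.

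Cells picked by 8 genes carried the rest of the division programme, which the rule did not use; since the genes are co-expressed, this describes the cells and is no test. Against cells of the same lineage and library with none of the 8, at least 1.5-fold higher levels were found for 45 of 45 measured replication genes in Glutoborin T cells and 48 of 48 in Vehicle T cells, where 26.4% and 24.1% of all measured genes were that much higher. The median log2 ratio, cycling over none, was 2.62 in Glutoborin and 2.82 in Vehicle. In B cells 42 of 44 replication genes were higher in each library, with medians of 2.65 and 2.71, against 21.4% and 19.0% of all genes. In NK cells 21 of 23 were higher in Glutoborin and 27 of 27 in Vehicle, with medians of 2.16 and 2.51, against 15.0% and 17.5%. Every measured gene of the spindle list was higher in all 3 lineages, with medians from 3.93 in Vehicle B cells to 5.67 in Glutoborin NK cells. Cenpf, a protein of the outer kinetochore, stood at 211 CPM in cycling and 0.330 CPM in other T cells of Glutoborin, and at 137 and 0.413 CPM in Vehicle. Hmmr, a spindle-associated protein, stood at 114 and 0.132 CPM in Glutoborin T cells and at 81.5 and 0.0825 CPM in Vehicle T cells. In B cells Ccna2, the cyclin of S phase and G2, stood at 134 CPM in cycling and 0.399 CPM in other cells of Glutoborin, and at 102 and 0.482 CPM in Vehicle. Kif11, a motor that pushes spindle poles apart, stood at 119 and 0.354 CPM in Glutoborin and at 96.3 and 0.783 CPM in Vehicle.

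Cycling B cells had lower levels of several genes of the resting mature B cell. Of 13 measured B cell genes, 8 were at least 1.5-fold lower in cycling cells of Glutoborin and 5 in Vehicle, with medians of -0.78 and -0.54, where 23.4% and 24.7% of all genes were that much lower. Ighd, the heavy chain of surface IgD, stood at 279 CPM in cycling and 985 CPM in other B cells of Glutoborin, and at 375 and 968 CPM in Vehicle. Fcer2a, the low-affinity IgE receptor CD23 of follicular B cells, stood at 39.3 and 273 CPM in Glutoborin and at 45.2 and 204 CPM in Vehicle. It is from a separate list of 12 B cell subset genes, of which it had the lowest ratio, and that list was mixed. In Glutoborin 4 of the 12 were at least 1.5-fold higher and 3 lower, with a median of -0.20. In Vehicle 2 were higher and 3 lower, with a median of 0.30. Ebf1, a factor of B cell identity, stood at 602 and 1688 CPM in Glutoborin and at 831 and 1622 CPM in Vehicle. Ighd, Fcer2a and Ebf1 were thus lower in cycling B cells of each library. Genes of the NK list had higher summed levels in the same cycling B cells. In Glutoborin 13 of 14 measured were at least 1.5-fold higher, with a median of 3.78, and in Vehicle 6 of 7, with 1.57. Of all genes 21.4% and 19.0% were that much higher. Few cells carried them: all 3 of the NK genes Ncr1, Klrb1c and Klre1 had a UMI in 3 of 43 Glutoborin and 1 of 26 Vehicle cycling B cells. The part of the NK genes in the lower B cell genes was not tested.

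A few cycling B cells carried several genes of the germinal centre. Of the 20-gene germinal centre list as a whole, 7 of 14 measured genes were at least 1.5-fold higher and 4 lower in cycling than in other B cells of Glutoborin, with a median log2 ratio of 0.62. In Vehicle 2 of 13 were higher and 7 lower, with a median of -0.71. Of all genes 21.4% were that much higher and 23.4% lower in Glutoborin, and 19.0% and 24.7% in Vehicle. Of 6 genes chosen after their values were seen (S1pr2, Nuggc, Gcsam, Mef2b, Rgs13 and Mybl1), at least 3 had a UMI in 5 of 43 Glutoborin cells (11.6%, 3.89 to 25.1%) and in 1 of 26 Vehicle cells (3.85%, 0.0973 to 19.6%), intervals that overlap. In B cells with none of the 8 rule genes the counts were 0 of 4661 and 0 of 3053, at median depths of 4082 and 4682 UMIs against 16974 and 20607.5 in cycling B cells. In Glutoborin 4 of the cells carried all 6 genes and 1 carried 4, whereas the Vehicle cell carried 3. S1pr2, a receptor that keeps B cells in germinal centres, had a UMI in 6 of 43 Glutoborin cells and in 0 of 26 Vehicle cells, a count of 0 that allows up to 11.5% of cells with a UMI at that depth, taking 3 counts as its limit. Rag1, Rag2, Dntt, Igll1 and Vpreb1, genes of B cell precursors in the marrow, were at 0 in cycling B cells of both libraries.

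Cycling T cells carried effector genes. Of 29 measured activation and effector genes, 22 were at least 1.5-fold higher in cycling than in other T cells of Glutoborin and 21 in Vehicle, with medians of 1.20 and 1.01, and none and 2 were that much lower; 26.4% and 24.1% of all genes were higher. Genes of the NK list stood higher in the same cells, 14 of 16 in Glutoborin, with a median of 2.47, and 11 of 16 in Vehicle, with 1.47. Without the T cells that carried Ncr1, the effector genes were higher in 16 of 29 and lower in 1 in Glutoborin, with a median of 0.68, and higher in 16 of 26 and lower in 2 in Vehicle, with 0.94, and the NK list had 5 of 12 and 6 of 12 higher, with medians of 0.53 and 0.75. The gene levels that follow include the cells with Ncr1. Gzma, a granule protease, stood at 2486 CPM in cycling and 81.9 CPM in other T cells of Glutoborin, and at 1223 and 155 CPM in Vehicle. Gzmk, a related protease of memory CD8 cells, stood at 81.2 and 1.78 CPM in Glutoborin and at 33.6 and 1.32 CPM in Vehicle. Tbx21, the factor T-bet of cytotoxic and Th1 cells, stood at 50.9 and 12.8 CPM in Glutoborin and at 60.0 and 13.2 CPM in Vehicle. Il7r, the receptor of naive and memory T cells for IL-7, went the other way, with 96.8 CPM in cycling and 493 CPM in other T cells of Glutoborin, and 131 and 501 CPM in Vehicle. Tcf7, a factor of naive and stem-like T cells, stood at 131 and 283 CPM in Glutoborin and at 132 and 285 CPM in Vehicle.

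Between the treatments, the median cycling cell of the Glutoborin library carried less of the replication programme, and in the NK class more of the mitotic one. Each cell was described by its UMIs per 10000 for the replication list and for the joined lists of mitotic kinases, kinetochore and spindle, in which the 8 rule genes were not counted. The replication median was 51.0 in Glutoborin and 69.9 in Vehicle over all cycling cells, and 63 of 157 Glutoborin cells (40.1%, 32.4 to 48.2%) against 78 of 125 Vehicle cells (62.4%, 53.3 to 70.9%) stood above the pooled median of 60.0. By lineage the cells above it were 25 of 53 Glutoborin and 31 of 52 Vehicle T cells (33.3 to 61.4% and 45.1 to 73.0%), 15 of 43 and 12 of 26 B cells (21.0 to 50.9% and 26.6 to 66.6%), and 10 of 28 and 17 of 19 NK cells (18.6 to 55.9% and 66.9 to 98.7%). The cells of a library are not replicates, and the intervals of the T and B shares overlap. The mitotic median was 97.3 in Glutoborin and 87.4 in Vehicle, and 79 of 157 and 62 of 125 cells stood above the pooled median of 89.7, with overlapping intervals in each lineage (NK cells 19 of 28, 47.6 to 84.1%, and 9 of 19, 24.4 to 71.1%). T cells were level, with 29 of 53 Glutoborin (54.7%) and 28 of 52 Vehicle cells (53.8%) above it. B cells went the other way, with 16 of 43 (37.2%) and 12 of 26 (46.2%). In NK cells the mitotic median was 205 in Glutoborin and 78.3 in Vehicle, and the replication median 51.9 and 79.3. Of the 28 Glutoborin NK cells, 12 had a lower replication value than the lowest Vehicle NK cell, which was at 36.6, although the 2 groups overlapped. With 1 Cd3 UMI allowed the NK medians were 199.9 and 78.3 for the mitotic lists and 51.9 and 83.1 for replication, and the lowest Vehicle cell was at 8.71. T cells had replication medians of 54.6 in Glutoborin and 66.4 in Vehicle and mitotic medians of 112 and 90.9, which were 37.4 and 66.4 for replication and 100.1 and 89.99 for mitosis without the T cells that carried Ncr1. B cells had replication medians of 41.0 in Glutoborin and 54.6 in Vehicle and mitotic medians of 77.6 and 74.9. Cells with none of the 8 genes were at 8.46 and 8.75 for replication and at 10.5 and 10.6 for the mitotic lists. They were chosen for lacking genes of the same programme, so they lie low in both lists by choice and cannot show a gap in phase between the libraries.

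**Figure D3:**
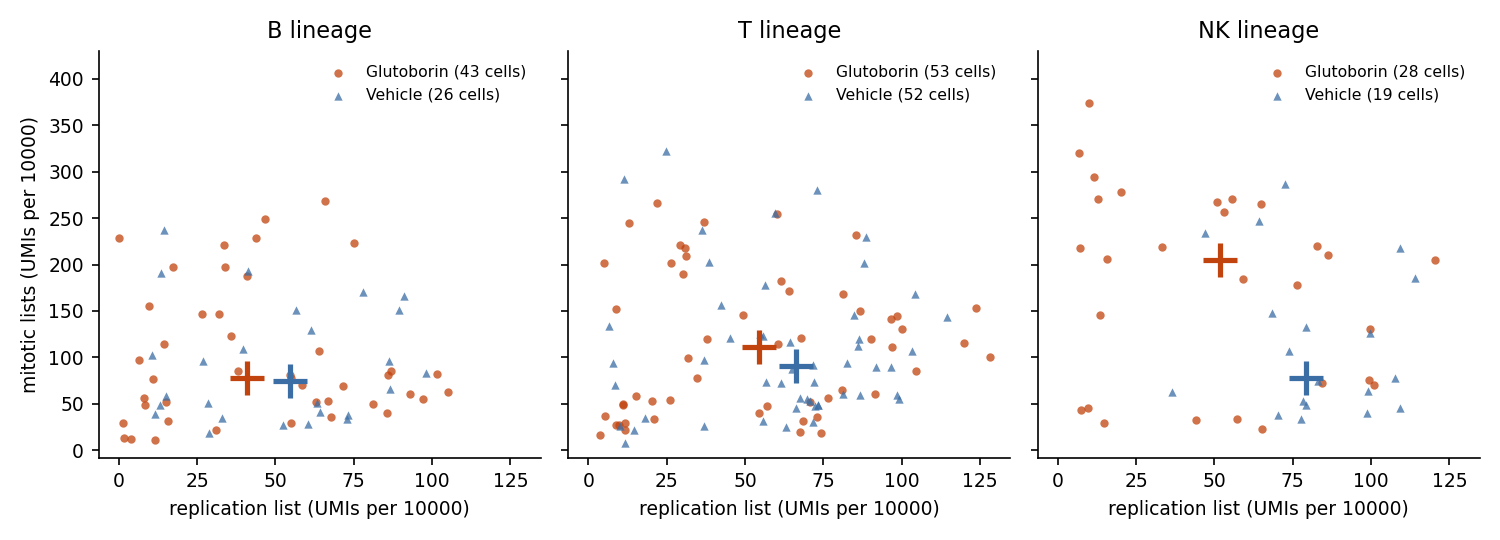
Each point is 1 cycling cell of the B, T or NK class, by its UMIs per 10000 of the replication list (horizontal axis) and of the mitotic lists (vertical axis); crosses mark the medians of Glutoborin and Vehicle cells. Glutoborin NK cells had medians of 51.9 for replication and 205 for mitosis, and Vehicle NK cells 79.3 and 78.3.

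The same shift was read gene by gene from the summed counts. In cycling NK cells, 2326 genes were measured, of which 11.7% were at least 1.5-fold higher and 12.6% at least 1.5-fold lower in Glutoborin. Of 25 spindle genes 20 were higher and none lower, with a median log2 ratio of 1.00, against -0.03 for all genes. Genes were called measured by UMIs summed over both libraries, so a gene high in 1 library could pass through it alone. The counts and medians of lists in NK cells, here and below, are therefore descriptions. How far this limit shaped them was not tested. Tubb4b, a tubulin, stood at 1167 CPM in Glutoborin and 567 CPM in Vehicle NK cells (log2 ratio 1.04, interval 0.79 to 1.30). Nusap1, which bundles spindle microtubules, stood at 449 and 205 CPM (log2 ratio 1.13, interval 0.71 to 1.56). Tuba1b differed less, with 2446 and 2134 CPM and a log2 ratio of 0.20 (0.05 to 0.34). Of 12 mitotic kinase and checkpoint genes 6 were higher and none lower, with a median of 0.63. Plk1, a kinase of mitotic entry and exit, had 81 UMIs in 19 of 28 Glutoborin NK cells and 12 UMIs in 7 of 19 Vehicle NK cells (log2 ratio 2.31, interval 1.42 to 3.32). Cdca8, a passenger complex protein, stood at 375 CPM in Glutoborin and 160 CPM in Vehicle NK cells (log2 ratio 1.23, interval 0.76 to 1.72). Of 13 kinetochore genes 7 were higher and 1 lower, with a median of 0.61.

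Replication genes lay on the other side in NK cells, with 19 of 32 at least 1.5-fold lower, none higher and a median of -0.69. Of all genes measured in NK cells 12.6% were that much lower and 11.7% that much higher. Pcna, the sliding clamp, stood at 396 CPM in Glutoborin and 727 CPM in Vehicle NK cells (log2 ratio -0.88, interval -1.17 to -0.58). Mcm3, a helicase subunit, stood at 177 and 375 CPM (log2 ratio -1.09, interval -1.53 to -0.65). Slbp, which binds histone mRNA, stood at 286 and 502 CPM (log2 ratio -0.81, interval -1.17 to -0.46). Genes of nucleotide synthesis were lower in 4 of 8, with a median of -0.65. Histone genes, made in S phase, did not follow the replication list: of 11 measured in NK cells 3 were higher, with a median of 0.23, and Hist1h4d stood at 243 CPM in Glutoborin and 111 CPM in Vehicle NK cells.

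In T and B cells the medians of the spindle and replication lists had the same signs as in NK cells, at smaller sizes. In T cells 8.18% of 5417 genes were at least 1.5-fold higher and 5.85% lower in Glutoborin, and the median of all was 0.02. The spindle list had 6 of 31 genes higher and a median of 0.27, and the replication list 5 of 47 lower and a median of -0.32. Pcna stood at 363 CPM in Glutoborin and 507 CPM in Vehicle T cells (log2 ratio -0.48, interval -0.67 to -0.30). Stmn1, which destabilises microtubules, stood at 1239 and 918 CPM (log2 ratio 0.43, interval 0.32 to 0.55). In B cells 9.81% of 3437 genes were higher and 5.47% lower, and the median of all was 0.04. The spindle list had 5 of 22 genes higher and a median of 0.29, and the replication list 2 of 41 lower and a median of -0.09, a share below that of all genes. Histone genes were higher in 7 of 21 in T cells and 6 of 13 in B cells, with medians of 0.45 and 0.57. Members differed: Hist1h1b stood at 337 CPM in Glutoborin and 483 CPM in Vehicle T cells and at 417 and 314 CPM in B cells, so that its ratio had opposite signs in the 2 lineages, at -0.52 (-0.71 to -0.33) and 0.41 (0.13 to 0.69). Over all cycling cells, where 7.87% of 7978 genes were higher and 3.69% lower with a median of 0.02, the spindle list had a median of 0.41 with 5 of 32 higher and the replication list -0.33 with 2 of 49 lower.

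**Figure D4:**
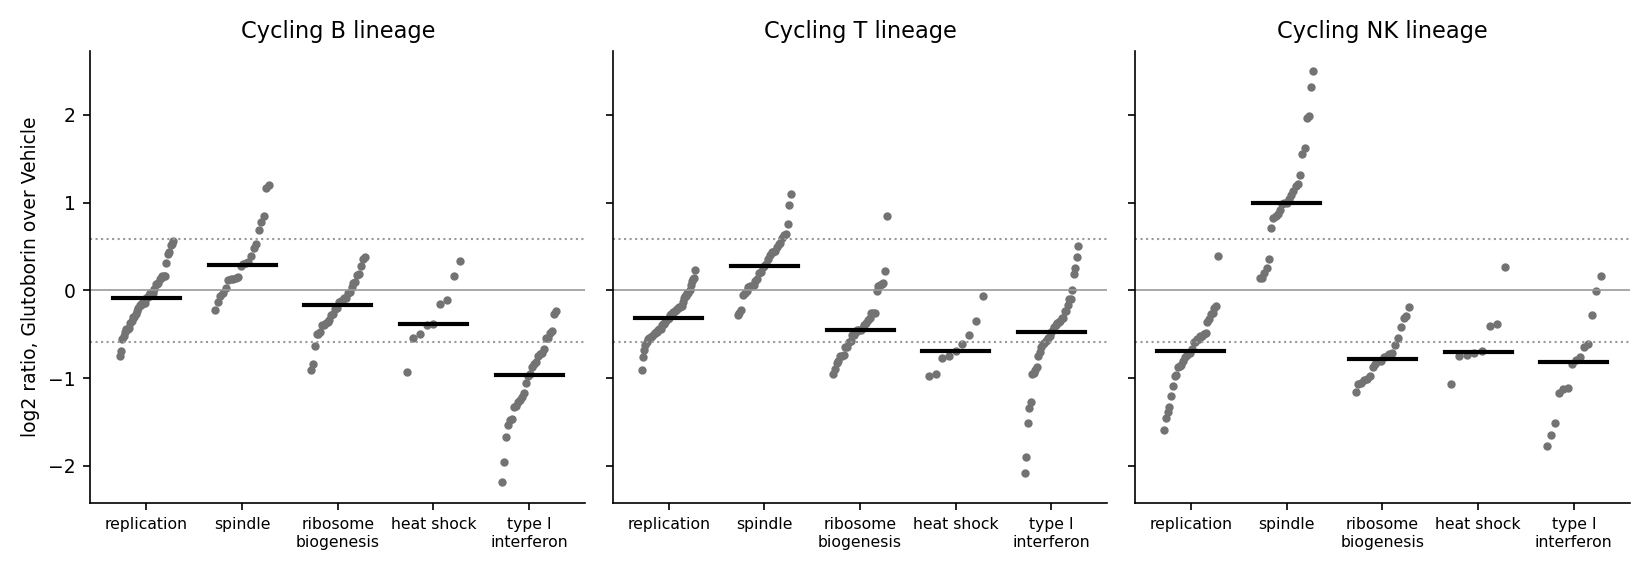
Log2 ratio, Glutoborin over Vehicle, of each measured gene (points) of 5 lists in cycling B, T and NK cells, with black bars for the list medians and dotted lines at 1.5-fold. In NK cells the spindle list had a median of 1.00 and the replication list -0.69, in T cells 0.27 and -0.32, and in B cells 0.29 and -0.09.

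Genes of ribosome building and of protein folding stood lower in cycling NK and T cells of Glutoborin. In NK cells 15 of 20 measured genes of the Myc and ribosome list and 5 of 8 heat shock genes were at least 1.5-fold lower, with medians of -0.78 and -0.70; the Myc-list median was -0.39 without the 3 deepest cells of each library. In T cells the counts were 10 of 32 lower and 1 higher, with a median of -0.45, and 6 of 9 lower, with a median of -0.69. Of all genes 12.6% were that much lower in NK cells, 5.85% in T cells and 5.47% in B cells. Npm1, a nucleolar chaperone, stood at 1429 CPM in Glutoborin and 2381 CPM in Vehicle T cells (log2 ratio -0.74, interval -0.83 to -0.65). Ncl, nucleolin, stood at 906 and 1690 CPM (log2 ratio -0.90, interval -1.01 to -0.79). Hspd1, the mitochondrial chaperonin, stood at 262 and 507 CPM (log2 ratio -0.95, interval -1.16 to -0.75). Without the 2 erythroid-gene cells of the T class these differences were wider, with list medians of -0.82 and -0.94. In T cells with none of the 8 genes the same 32 Myc-list genes had a median of 0.00 and the 9 heat shock genes -0.27, whereas NK cells with none of the 8 had a Myc-list median of -0.62 over 27 genes and a heat shock median of -0.55 over 9. In B cells 3 of 30 Myc-list genes were lower, with a median of -0.17, which was 0.11 with at least 5 of the 8 genes and 0.081 without the 3 deepest cells of each library. Over 9 heat shock genes the median was -0.38 in cycling B cells and -0.38 in B cells with none of the 8. The median in cycling B cells was 0.14 with at least 5 of the 8 genes.

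Interferon-stimulated genes stood lower in cycling cells of Glutoborin in all 3 lineages. These are the genes that type I interferons switch on and that act against viruses and other intracellular agents. Of the type I list, 22 of 28 measured genes were at least 1.5-fold lower in B cells, 14 of 37 in T cells and 11 of 14 in NK cells. None was that much higher, and the medians were -0.97, -0.47 and -0.81. Of all genes 5.47% were that much lower in B cells, 5.85% in T cells and 12.6% in NK cells. Ifi27l2a stood at 1482 CPM in Glutoborin and 2711 CPM in Vehicle B cells (log2 ratio -0.87, interval -0.98 to -0.76), and at 1263 and 1634 CPM in T cells (log2 ratio -0.37, interval -0.47 to -0.27). Trim30a, a regulator of inflammasome and innate signalling, stood at 103 and 238 CPM in B cells (log2 ratio -1.21, interval -1.64 to -0.79). Isg15, a ubiquitin-like protein, stood at 109 and 164 CPM in T cells (log2 ratio -0.60, interval -0.94 to -0.27). Letters of the interferon-stimulated response element, searched on both strands, stood in 24 of 44 promoters of the list (54.5%), against 3.49% of all promoters counted. They were not particular to it, standing in 12 of 23 promoters of the interferon gamma list (52.2%). Genes of the interferon gamma list were lower in 9 of 18 in B cells, 6 of 23 in T cells and 5 of 13 in NK cells, with medians of -0.70, -0.11 and -0.56. Igtp, a GTPase of cell-autonomous defence, had 18 UMIs in 12 of 43 Glutoborin B cells and 80 UMIs in 23 of 26 Vehicle B cells (log2 ratio -2.78, interval -3.61 to -2.03). Psmb8, an immunoproteasome subunit, differed little, at 727 and 802 CPM in B cells.

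In B and T cells the medians lay nearer 0 in cycling cells than in cells with none of the 8 genes, a difference that could not be tested. Over the type I genes measured in both states, the median log2 ratio was -0.97 in cycling and -1.28 in other B cells (28 genes, 20 of them nearer 0 in cycling cells), and -0.47 and -0.84 in T cells (37 genes, 27 nearer 0). As a mean over cells of each cell's own CPM, the median in cycling T cells was -0.72. In NK cells both medians were -0.81 (14 genes, 7 nearer 0). Ifi27l2a in T cells was at -0.37 in cycling and -0.96 in other cells, and Isg15 at -0.60 and -1.46.

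**Figure D5:**
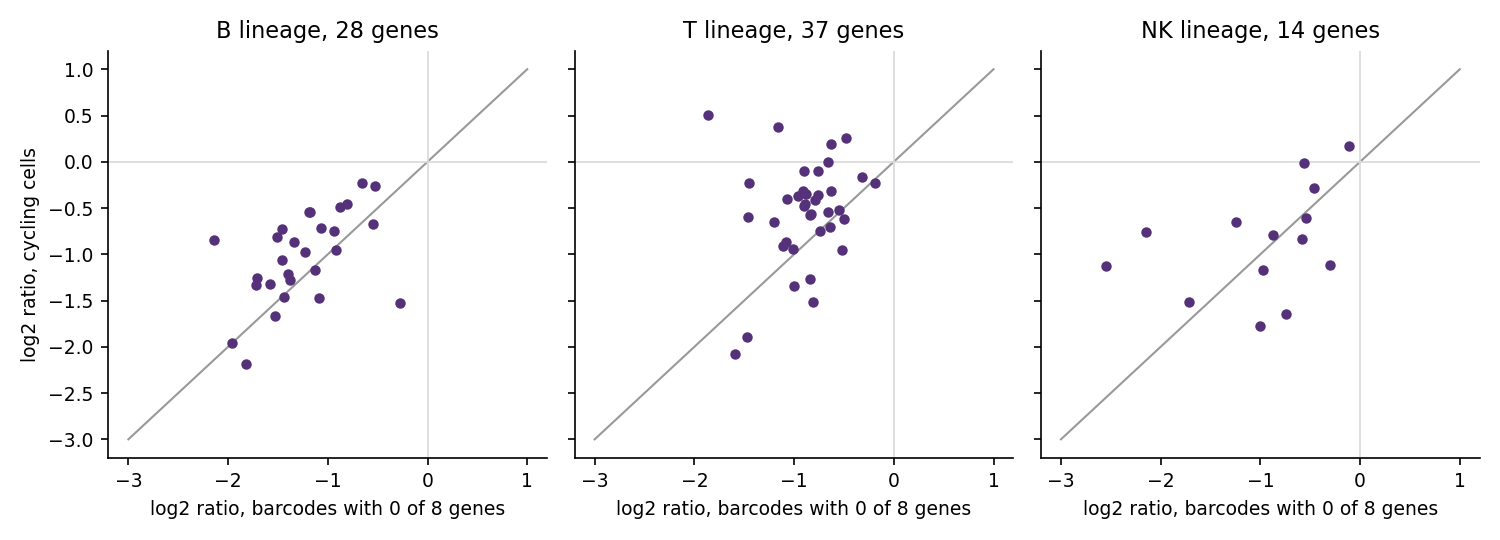
Log2 ratio, Glutoborin over Vehicle, of each type I interferon gene in cycling cells (vertical axis) against cells with none of the 8 rule genes (horizontal axis), by lineage, with the line of equal values. The medians in cycling and other cells were -0.97 and -1.28 in B cells, -0.47 and -0.84 in T cells, and -0.81 in both in NK cells.

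Effector genes of cycling T cells differed between the libraries in both directions. Of 23 measured genes 11 were at least 1.5-fold higher and 2 lower, with a median of 0.35, which was 0.01 without the T cells that carried Ncr1. Of all genes measured in cycling T cells 8.18% were that much higher and 5.85% lower. Gzma stood at 2486 CPM in Glutoborin and 1223 CPM in Vehicle cycling T cells (log2 ratio 1.02, interval 0.93 to 1.11), and at 0.83 without the cells with Ncr1. In T cells with none of the 8 genes its ratio was -0.92, the opposite sign. Ccl5, a chemokine of cytotoxic cells, stood at 1746 and 790 CPM (log2 ratio 1.15, interval 1.04 to 1.25), and at 0.72 without the cells with Ncr1. Gzmb, granzyme B, stood at 545 and 795 CPM (log2 ratio -0.55, interval -0.70 to -0.40), but at 1.04 without those cells, so its direction rested on 11 Glutoborin and 8 Vehicle cells. Il2ra, the alpha chain of the IL-2 receptor, had 39 UMIs in 12 of 53 Glutoborin T cells and 164 UMIs in 23 of 52 Vehicle T cells (log2 ratio -1.62, interval -2.16 to -1.11), which was -0.84 without the cells with Ncr1 and -0.71 without the 3 deepest cells of each library. Genes of the NK list were higher in 10 of 15 in cycling T cells, with a median of 0.92, and in 5 of 10, with a median of 0.67, without the cells with Ncr1. In cycling NK cells Gzma was nearly level, at 11009 CPM in Glutoborin and 10596 CPM in Vehicle, whereas Gzmb stood at 356 and 1101 CPM (log2 ratio -1.63, interval -1.92 to -1.35) that was -0.52 with 1 Cd3 UMI allowed.

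Several plasma cell genes had more UMIs in cycling B cells of Glutoborin. Of 17 genes of the list 8 reached 50 UMIs, 7 of them at least 1.5-fold higher and 1 lower. Of all genes measured in cycling B cells 9.81% were that much higher and 5.47% lower. A gene with most UMIs in 1 library can reach the limit of 50 UMIs through it alone, so the count is a description. At least 2 of Jchain, Mzb1 and Derl3 had a UMI in 17 of 43 Glutoborin and 10 of 26 Vehicle cells. Derl3, a protein of secretory quality control, had 82 UMIs in 13 of 43 Glutoborin cells and 9 UMIs in 7 of 26 Vehicle cells (log2 ratio 2.55, interval 1.56 to 3.73). Of its Glutoborin UMIs 37.8% lay in 1 cell and 67.1% in 3. Mzb1, a chaperone of antibody secretion, stood at 1006 CPM in Glutoborin and 470 CPM in Vehicle, a log2 ratio of 1.10, and at 0.92 without the cell richest in it in each library. Ighm, the heavy chain of IgM, stood at 5818 CPM in Glutoborin and 2845 CPM in Vehicle, with 32.8% of the Glutoborin UMIs in 1 cell, and its log2 ratio of 1.03 was 0.58 without the richest cells. Iglc2, a lambda light chain, stood at 5864 and 1776 CPM, with 60.7% of the Glutoborin UMIs in 1 cell, and its log2 ratio of 1.72 was 0.58 without the richest cells. Gzma, which B cells are not known to make, had UMIs in 11 of 43 Glutoborin and 6 of 26 Vehicle cycling B cells, with 49.0% and 93.5% of them in 1 cell.

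Over all cycling cells the genes with the largest ratios were mostly those of a few cells. Car1 had 1131 UMIs in 6 Glutoborin cells and none in Vehicle, at least 354-fold higher against 3 counts over the Vehicle cells. Mt2, a metallothionein, had 287 UMIs in 4 Glutoborin cells and 1 UMI in Vehicle. Mt1 had 330 and 33 UMIs, a log2 ratio of 3.23 that was -0.73 without the erythroid-gene cells, and C1qtnf12 had 215 and 5 UMIs, with 5.34 against 0.92. Blvrb, biliverdin reductase B, had 540 and 98 UMIs, with 2.37 against 1.39, Ifitm2 227 and 38 UMIs, with 2.49 against 1.45, and Car2, a carbonic anhydrase, 872 and 217 UMIs, with 1.92 against 0.54. Jchain, the joining chain of secreted antibodies, had 423 UMIs in Glutoborin and 33 in Vehicle, with 73.0% of the Glutoborin UMIs in 1 cell of no lineage. Apoe, an apolipoprotein, was more widely spread, with 197 UMIs in 47 Glutoborin cells and 30 UMIs in 22 Vehicle cells (log2 ratio 2.63, interval 2.07 to 3.23). Iglc2 had 4892 UMIs in Glutoborin and 1117 in Vehicle, with 57.5% of the Glutoborin UMIs in 1 cell.

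On the lower side Chil3, S100a8 and S100a9, genes of neutrophils and monocytes, rested on 1 cell in a library. Chil3 had 7 UMIs in Glutoborin and 273 in Vehicle, 92.7% of them in 1 cell, and S100a8 had 434 and 1222 UMIs, of which 96.5% and 97.9% lay in 1 cell of each library. S100a9 had 541 and 1282 UMIs, with 95.2% and 96.9% in 1 cell. The others were found in more cells, some of them unevenly. In Vehicle the richest 3 cells held 55.7% of Il2ra, 51.0% of Cxcl10, 40.9% of Gadd45g and 31.5% of Furin UMIs. They held 27.1% of Usp18, 16.6% of Gbp2 and 14.6% of Ifi208 UMIs. Cxcl10, a chemokine induced by interferon, had 44 UMIs in 16 Glutoborin cells and 204 UMIs in 34 Vehicle cells (log2 ratio -2.30, interval -2.81 to -1.83). Furin, a protease that matures secreted proteins, had 71 UMIs in 37 Glutoborin cells and 235 UMIs in 54 Vehicle cells (log2 ratio -1.82, interval -2.22 to -1.43). Usp18, which removes Isg15 from proteins, had 68 and 177 UMIs in 38 and 65 cells, and the interferon-inducible Ifi208 77 and 178 UMIs in 51 and 69 cells. Gbp2, a guanylate-binding protein, had 152 and 319 UMIs, Gadd45g 73 and 181, and Il2ra 58 and 174.

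In T cells the named genes on the higher side were likewise led by the 2 erythroid-gene cells and by 1 cell with S100a8. Car1 had 776 UMIs and Ermap 56 in those 2 cells and none in Vehicle, Mt2 had 170 UMIs in 2 cells and 1 UMI in Vehicle, and C1qtnf12, Blvrb, Car2 and Mt1 had at least 84.2% of their Glutoborin UMIs in 3 cells. S100a8 had 427 UMIs in Glutoborin and 5 in Vehicle, with 98.1% in 1 cell, and S100a9 524 and 23 UMIs. Nrgn, a calmodulin-binding protein, had 56 UMIs in 13 Glutoborin cells and 3 UMIs in 2 Vehicle cells. On the lower side, Fabp5, a fatty acid binding protein, had 34 UMIs in 17 Glutoborin cells and 160 UMIs in 22 Vehicle cells (log2 ratio -1.78, interval -2.36 to -1.24). Ifit3, an interferon-induced protein, had 13 UMIs in 8 Glutoborin cells and 75 in 22 Vehicle cells (log2 ratio -2.08, interval -3.05 to -1.22). Ly6a, the surface protein Sca-1, stood at 447 CPM in Glutoborin and 862 CPM in Vehicle (log2 ratio -0.95, interval -1.11 to -0.79), which was -0.71 without the erythroid-gene cells. Furin, Galk1, Ifi213, Nars, Plac8 and Ncl completed this side, with log2 ratios of -1.56, -1.54, -1.51, -1.19, -0.95 and -0.90.

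Transcripts of other lineages were present in cycling T and NK cells of both libraries. Igkc, an antibody light chain, stood at 140 CPM in Glutoborin and 234 CPM in Vehicle cycling T cells and at 266 and 544 CPM in T cells with none of the 8 genes. Lyz2 stood at 24.4 and 52.9 CPM in cycling T cells. Igkc stood at 165 CPM in Glutoborin and 293 CPM in Vehicle cycling NK cells. Cd74, a chaperone of antigen presentation in B and myeloid cells, stood at 181 and 932 CPM in cycling NK cells, with 74.8% of the Vehicle UMIs in 1 cell, and its log2 ratio of -2.36 was -0.74 without the richest cells. These levels were lower in Glutoborin in each case, and their part in the results above was not tested.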

How the data were processed

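Single-cell RNA of CD45+ spleen cells was counted in 2 libraries, 1 for Glutoborin and 1 for Vehicle. The values deposited by the authors are raw UMI counts, whole numbers for each gene in each barcode. Per the file headers, Cell Ranger 6.1.2 made them; the submitters' processing notes name Cell Ranger 6.0.1, Seurat 4.3.0 and mm10. The libraries held 56862506 UMIs (Glutoborin) and 48526451 UMIs (Vehicle) in 9646 and 8204 barcodes.

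Barcodes were kept from 300 genes and 500 UMIs upward when mitochondrial UMIs were under 10% (9253 and 6688), and cycling cells and lineages were taken by UMI limits as stated with the results. The members, the 34 gene lists and the limits were chosen with earlier results of these data known. UMIs were summed per class and library and divided by the class total. A gene counted as measured from 50 UMIs summed over the libraries, and 1.5-fold was the limit for calling a gene higher or lower. A gene high in 1 library can thus be measured through that library alone. Log2 ratios carry the exact conditional interval of a ratio of Poisson counts, and shares of cells the exact Clopper-Pearson interval, both at 95% and for counting error alone; UMIs of 1 cell are not independent of each other. Because each group is 1 library there was no test and no p-value. A fold against a library at 0 used 3 counts over the group. Named genes, over all cycling cells and in T cells, were the 10 on each side with the interval bound furthest from no change among genes of at least 50 CPM in the higher library. Besides these, up to 6 members of each list with most UMIs were named. Other genes, among them the germinal centre and erythroid sets and the B and NK genes outside the lists, were chosen after their values were seen. Doublets were called by Scrublet in each library alone (347 and 195 of the kept barcodes) and kept, with values without them as an alternative. A count of 0 cells was given the limit of 3 counts of the cells, which concerns cells with a UMI and not cells expressing the gene. For some shares cells were thinned to 2000 UMIs, leaving out shallower ones. Promoters were taken from the RefSeq table of GRCm38.p6, 1 per gene symbol, with those of 1 chromosome left out of all counts. The interval and calling code was tested on simulated counts. Python 3.11.15, numpy 2.4.6, scipy 1.17.1, pandas 2.3.3, scanpy 1.11.5 and matplotlib 3.10.9 were used.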

Additional observations from a re-analysis of the deposited data

Results flagged for a closer look

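The log2 ratio of the cycling share, Glutoborin over Vehicle, differed in sign between lineages, at 0.15 in B cells, -0.39 in T cells and -0.14 in NK cells. Within T cells the ratio was 0.26 for cells with Cd4 alone and -0.63 for cells with Cd8a or Cd8b1 alone. Each group is 1 library, these differences between classes were not tested, and the counting intervals of the B, T and NK ratios overlap each other.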

How the results depend on the processing

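No paired analysis was possible because each group is 1 library. Alternatives to the limits, filters and scaling left most values within their counting interval or within 1.5 times the reported count. The shares, gene counts and medians that moved follow, Glutoborin before Vehicle, with the single-gene ratios of at least 1.5-fold that changed sign. A further 136 alternative values of single genes left their counting interval and, apart from some given with the results, are not listed. The cause of a move was not tested unless stated. With at least 3 of the 8 genes the cycling shares were 1.99% and 2.24%. With at least 5 the Vehicle share was 1.51%, the Vehicle mitotic median 107, the Myc-list and heat shock medians in B cells 0.11 and 0.14, and the histone and type I interferon medians in NK cells 0.0073 and -0.58. With the rule read from barcodes thinned to 2000 UMIs, which lowers detection by construction, shares were 0.851% and 0.883% of all, 0.375% and 0.265% of B cells, 1.06% and 1.32% of T cells, and 6.06% of Vehicle NK cells. With lineage thinned too, they were 0.851% and 0.883%, 0.268% and 0.281% of B cells, 0.840% and 0.938% of T cells, and 6.25% of Glutoborin NK cells. As a mean over cells of each cell's own CPM, the interferon gamma medians were -0.71 over all cells and -0.23 in T cells, the type I median in T cells -0.72 and the histone median in B cells 0.19.

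Looser limits on measured genes admit fewer UMIs per gene and thereby more calls. From 20 UMIs, 1160 genes were higher and 494 lower over all cells, 1095 and 620 in T, 882 and 551 in B, and 769 and 799 in NK cells. From 1 UMI in each library the numbers were 2158 and 1091, 2137 and 1136, 1944 and 1954, and 1789 and 2135. Without the 3 cells with most UMIs the T medians were 0.28 for mitotic kinases and -0.64 for the Myc list, the B medians -0.27 for replication and 0.081 for the Myc list, and the NK median of the Myc list -0.39. On thinned counts, the cycling over other medians were 1.77 for effector genes in Vehicle T cells and 4.74 for the spindle list in Glutoborin NK cells.

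Other alternatives were chosen after seeing the data. Without the erythroid-gene cells 442 genes were lower over all cells and 528 in T cells, the Myc-list medians were -0.63 and -0.82, and the heat shock medians -0.66 and -0.94; Mt1 was at -0.73 over all cells and -0.70 in T cells, and C1qtnf12 at -0.30 in T cells. S100a9 in T cells, at 4.96 as reported, was at -0.85 without Scrublet doublets and -0.38 without its richest cells, which shows that 1 cell decided it. Without the T cells that carried Ncr1, the cycling over other medians in Glutoborin T cells were 0.68 for effector genes and 0.53 for the NK list. The NK results rest on 28 and 19 cells.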
